A study of Mus musculus with 12 samples.

Results

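Germline genes that somatic cells and differentiating cells are known to keep off through promoter methylation were followed across a Set knockdown in mouse embryonic stem cells. The group holds 36 genes named by symbol, and 36 of 36 had a probe set, of 19938 genes measured. They were listed by name, by a rule that uses no measured value, though with earlier results of these data known, and each is represented by its probe set with the highest mean over the 12 arrays. Set encodes a histone chaperone that also inhibits the phosphatase PP2A. R1 embryonic stem cells carried a scrambled control (Scrambled) or 1 of a pair of Set knockdowns (KD1 and KD2); the control had been infected, per its label. Cells in the ESC state grew in 15% FBS with 1000 U/ml leukemia inhibitory factor. Cells in the RA state spent 4 days in 1 µM retinoic acid and 10% FBS without that factor, so medium and retinoic acid changed together. Each of the 6 groups had 2 arrays. Each knockdown is 1 line and the control is another, so the p-values rest on how arrays of 1 line vary and not on how independent lines vary; the labels call the lines clones. Values are log2 probe set intensities, and a level may be set against other arrays for the same gene but not against another gene.

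Genes of this kind act in germ cells: some make piRNAs, the small RNAs that guide PIWI proteins to silence transposons, and others build the chromosome axes and recombination machinery of meiosis. Many have CpG-rich promoters that gain DNA methylation around implantation, through DNMT3B and its partners, and stay silent in somatic tissue. Stem cells in serum often transcribe several of them at a partial level, and there the polycomb complex PRC1.6, whose subunits E2F6 and MGA with MAX read E2F sites and E-boxes, also holds them down. DNA methylation itself was not measured here.

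The promoters of the members were rich in CpG. RefSeq (GRCm38.p6) listed 37 promoters for 32 of the 36 members. In the 250 bases before the start site their median was 15 CpG dinucleotides, against 6 for all 32851 listed promoters. At least 10 CpG stood in 30 of the 37 (81.1%), against 37.8% of all promoters. The E-box CACGTG, which reads the same on both strands, was in 17 of the 37 (45.9%), against 6.0% of all promoters and 9.4% of all those with at least 10 CpG. The letters TCCCGC of the E2F site, on either strand, were in 12 of the 37 (32.4%), against 16.9% of all promoters and 37.3% of all those with at least 10 CpG. Of the 30 member promoters with at least 10 CpG, 16 (53.3%) held the E-box and 11 (36.7%) the E2F letters. The E2F share was thus about that of all promoters with at least 10 CpG. These shares describe members chosen by name as germline genes known to be kept off by promoter methylation. The richness in CpG is therefore not independent of the choice. A match is a run of letters and not a bound site. Some of the 37 windows overlap within 1 gene. With 1 start for each of the 32 genes, 81.2% had at least 10 CpG, 43.8% the E-box and 34.4% the E2F letters. The 5 promoters below belong to members on which the expression results turn, and CpG dinucleotides are in capitals, each read 5′ to 3′ on the gene's strand up to the base before the start site. Asz1 lies at chr6:18109062-18109311 on the minus strand and holds neither motif, and Sycp3 at chr10:88459337-88459586 on the plus strand holds E-boxes beginning 64 and 43 bases before the start and an E2F match at 147. Smc1b at chr15:85131958-85132207 on the minus strand has 25 CpG and an E2F match at 47, Taf7l at chrX:134476491-134476740 on the minus strand has an E-box at 49, and Rec8 at chr14:55617916-55618165 on the plus strand has an E2F match at 38.
Asz1: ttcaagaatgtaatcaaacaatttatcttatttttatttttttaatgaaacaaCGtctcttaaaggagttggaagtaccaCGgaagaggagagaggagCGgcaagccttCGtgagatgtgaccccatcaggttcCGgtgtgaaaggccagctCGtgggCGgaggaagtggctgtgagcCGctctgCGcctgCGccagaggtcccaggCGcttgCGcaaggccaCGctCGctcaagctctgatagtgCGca
Sycp3: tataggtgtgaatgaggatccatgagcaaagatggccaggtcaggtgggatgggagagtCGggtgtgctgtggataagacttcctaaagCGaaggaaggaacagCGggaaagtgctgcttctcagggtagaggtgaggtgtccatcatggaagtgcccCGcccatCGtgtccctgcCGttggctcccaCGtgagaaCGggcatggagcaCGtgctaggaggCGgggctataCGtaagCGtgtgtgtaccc
Smc1b: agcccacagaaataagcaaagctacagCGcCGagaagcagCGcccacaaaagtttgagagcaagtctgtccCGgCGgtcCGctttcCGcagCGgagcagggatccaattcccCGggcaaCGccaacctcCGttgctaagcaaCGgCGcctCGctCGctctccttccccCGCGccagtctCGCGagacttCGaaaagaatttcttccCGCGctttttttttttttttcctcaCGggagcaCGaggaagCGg
Taf7l: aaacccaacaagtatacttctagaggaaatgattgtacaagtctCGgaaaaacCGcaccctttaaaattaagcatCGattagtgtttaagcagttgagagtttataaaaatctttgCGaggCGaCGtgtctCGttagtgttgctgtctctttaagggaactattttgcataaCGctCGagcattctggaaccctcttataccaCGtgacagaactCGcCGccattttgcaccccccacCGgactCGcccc
Rec8: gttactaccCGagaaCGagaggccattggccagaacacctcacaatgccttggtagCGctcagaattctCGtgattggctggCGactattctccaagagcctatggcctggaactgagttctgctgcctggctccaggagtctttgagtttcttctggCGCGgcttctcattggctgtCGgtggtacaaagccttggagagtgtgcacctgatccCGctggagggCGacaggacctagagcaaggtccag
These 5 promoters carry 10 to 25 CpG, whether the gene fell, rose or differed in the knockdown.

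**Figure D1:**
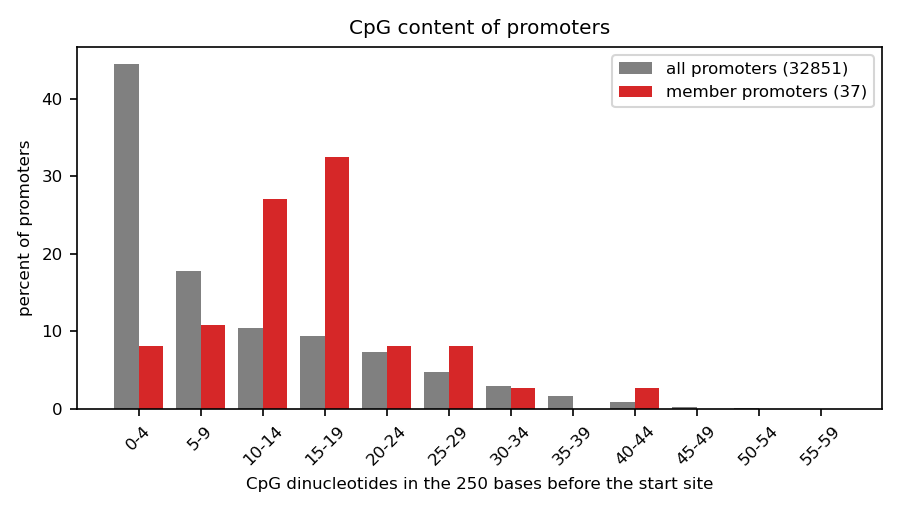
Percent of promoters (y axis) by number of CpG dinucleotides in the 250 bases before the start site, in bins of 5 (x axis), for all 32851 RefSeq promoters (grey bars) and the 37 promoters of members (red bars). The members sit mostly at 10 CpG or more (30 of 37), whereas 37.8% of all promoters do.

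A pair of arrays went against their labels, and counts of members are therefore given with all 12 arrays and with the other 10. A change of a single member that is given on 10 arrays only was not called on 12. The array labelled ESC KD2 replicate 2 correlated at 0.986 on average with the RA arrays and at 0.952 with the other ESC arrays, and the array labelled RA KD2 replicate 2 did the reverse (0.986 with ESC arrays, 0.952 with RA arrays). They are called the displaced arrays below. The mean of 8 stem cell markers was 9.65 in the first and 12.32 in the second, against 12.10 to 12.50 in the other ESC arrays and 8.05 to 9.41 in the other RA arrays. In the 10-array fit KD2 is 1 array per state, whose spread is assumed to match that of the other groups. The most intense of the Set probe sets, which also covers BC085271, read 12.71 to 12.93 in the Scrambled ESC arrays and 11.87 to 12.15 in the knockdown ESC arrays, and 12.27 to 12.29 and 11.16 to 11.99 in RA. The 11.87 and 11.99 are the displaced arrays. A probe set of Set alone read 8.82 and 8.39 in Scrambled ESC, 8.12 and 7.90 in KD1 and 8.54 in KD2 replicate 1. In RA it read 6.68 and 6.45, 6.61 and 6.715, and 6.79, and did not separate knockdown from Scrambled. Another of Set alone read 5.83 and 6.085, 6.35 and 6.04, and 6.20 in RA. Markers of late germ cells, which include protamines and zona proteins, had 0 to 2 of 10 genes above 7.22 on any array, where 7.22 is the median of all values. The protamine Prm2 ran from 7.08 to 7.67 on the 12 arrays and was above that median on most of them. The zona gene Zp3 was above it in ESC, with 9.37 and 8.15 in Scrambled ESC and 6.31 and 6.14 in Scrambled RA. A member is called changed below at an adjusted p under 0.05 in limma's moderated fit, with Benjamini-Hochberg adjustment over all 19938 genes. Of the members, 23 of 36 had a group mean of at least 7.22. The other 13 (Asz1, Tdrd1, Tdrd6, Tdrd9, Piwil1, Piwil4, Sycp1, Sycp2, Tex101, Tex15, Brdt, Mei1 and Dpep3) stayed below it in every group and are dim probes.

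**Figure D2:**
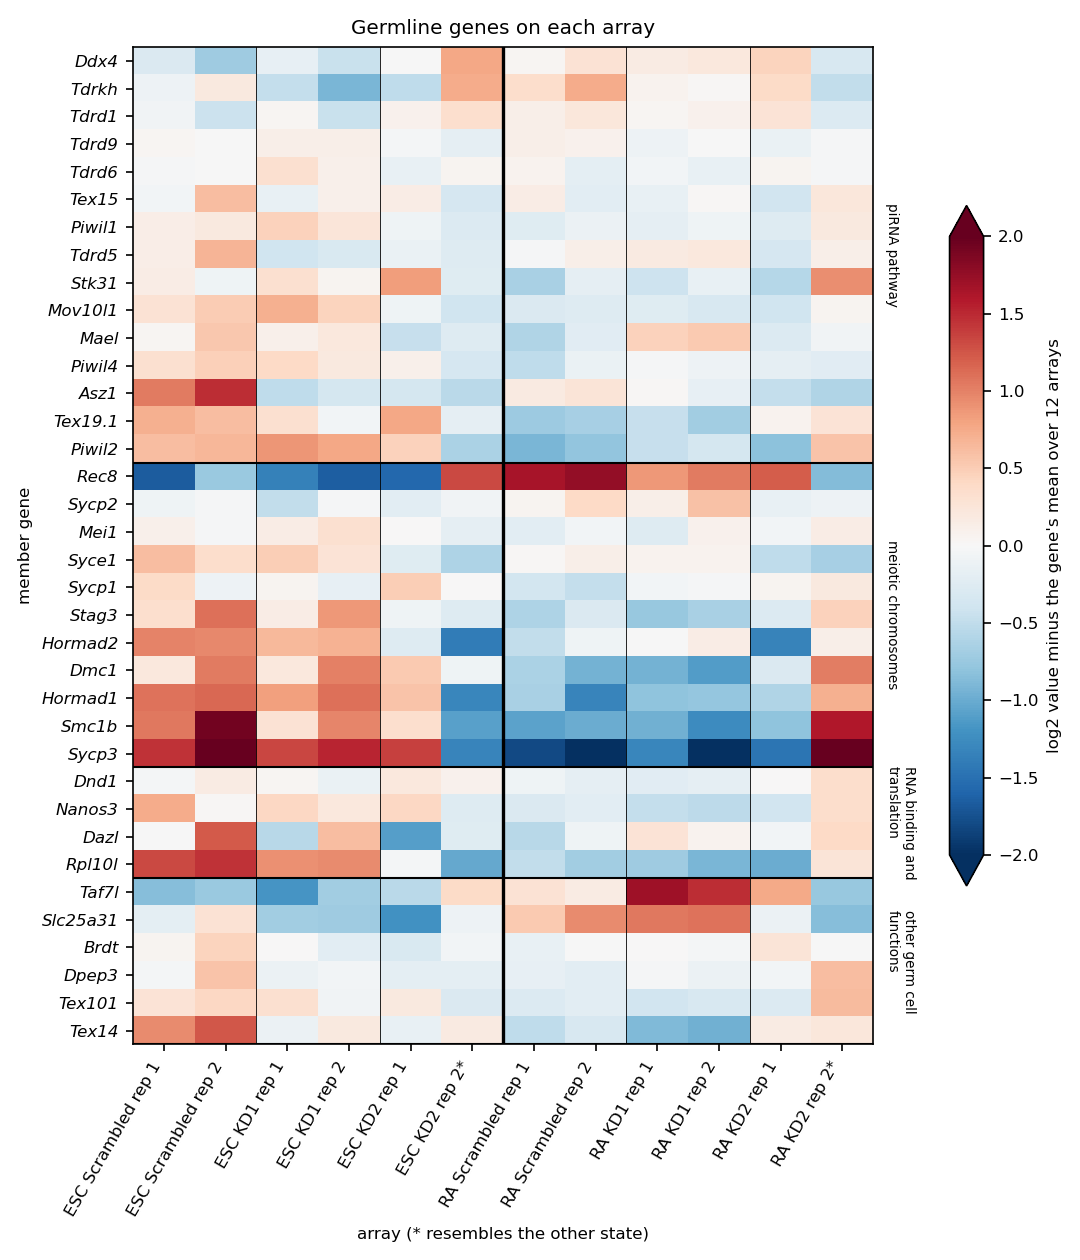
Log2 value of each member on each array minus that gene's mean over the 12 arrays (colour, cut at 2.0 in either direction), with members in rows ordered by role and arrays in columns. Displaced arrays aside, Sycp3, Smc1b and Hormad1 are red in ESC and blue in RA while Rec8 is the reverse, and the arrays marked with an asterisk follow the other state.

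From ESC to RA in Scrambled cells, most members that changed fell, led by genes of the meiotic chromosome axis, while Rec8 and Taf7l rose. On 10 arrays 19 of the 36 members fell and 4 rose, where 20.8% of all genes fell and 21.8% rose. On 12 arrays 6 fell and 0 rose, where 5.66% of all genes fell and 8.14% rose; limma gave 18 of the 36 an unadjusted p under 0.05. All 6 that fell on 12 arrays also fell on 10. The median difference of the 36 members was -0.51, against -0.04 over all genes, and 28 of 36 lay below 0. The count on 12 arrays hung on single arrays. It was 2 without ESC Scrambled replicate 1 or any 1 of the 4 KD1 arrays, 1 without RA Scrambled replicate 2, 0 without ESC Scrambled replicate 2 or RA Scrambled replicate 1, 16 without either ESC KD2 array and 17 without either RA KD2 array. On 10 arrays it was 18 to 25. The 8 stem cell markers fell in the same comparison, and the part that loss of stem cells plays was not tested; in bulk samples fewer cells of a type and less RNA per cell cannot be told apart.

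Among the 11 members of the meiotic chromosomes, 8 fell and 1 rose on 10 arrays, where 20.8% of all genes fell and 21.8% rose. On 12 arrays 1 of the 11 fell and 0 rose, where 5.66% of all genes fell and 8.14% rose. Sycp3, a lateral element of the synaptonemal complex, read 9.56 and 10.14 in the Scrambled ESC arrays, 9.45 and 9.64 in KD1, and 9.48 in KD2 replicate 1. The RA arrays gave 6.31 and 6.11 for Scrambled, 6.80 and 6.10 for KD1, and 6.64 for KD2 replicate 1. The displaced arrays read 6.79 (labelled ESC) and 10.31 (labelled RA). Sycp3 was thus high in every stem cell array and low in every differentiated one, with no overlap once the displaced arrays are set aside. It fell 12.5-fold in Scrambled cells on 10 arrays (log2 -3.64, SE 0.25, adjusted p = 6.82e-06). Smc1b, a cohesin subunit of meiosis, read 8.41 and 9.28 in Scrambled ESC and 6.27 and 6.35 in Scrambled RA. Its KD1 arrays read 7.65 and 8.32 in ESC and 6.38 and 6.10 in RA, and its KD2 arrays read 7.68 and 6.54, with the displaced arrays at 6.27 and 8.96. Displaced arrays aside, Smc1b stood lower in each RA array than in each ESC array, and it fell 5.77-fold in Scrambled cells (log2 -2.53, SE 0.29, adjusted p = 0.000123 on 10 arrays).

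Hormad1 and Hormad2, HORMA proteins of unsynapsed axes, also fell. Hormad1 read 9.81 and 9.86 in Scrambled ESC, 9.54 and 9.82 in KD1 and 9.28 in KD2 replicate 1, then 8.07 and 7.40, 7.90 and 7.94, and 8.11 in RA, with the displaced arrays at 7.42 and 9.43. Without the displaced arrays the states did not overlap, and the change in Scrambled cells was called on 12 arrays (log2 -2.10, SE 0.59, adjusted p = 0.0483) as well as on 10 (SE 0.21, adjusted p = 5.14e-05). A second, dimmer Hormad1 probe set, which was not tested, read 7.87 and 7.73 in Scrambled ESC and 5.11 and 5.25 in Scrambled RA. Hormad2 read 8.34 and 8.31 in Scrambled ESC, 8.0 and 8.04 in KD1 and 7.10 in KD2 replicate 1, and in RA 6.85 and 7.26, 7.34 and 7.5, and 6.02, with displaced arrays at 5.95 and 7.47. In both states its lowest array, displaced ones aside, was KD2 replicate 1. Its fall in Scrambled cells was -1.26 (SE 0.15, adjusted p = 0.000141 on 10 arrays).

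Dmc1, the recombinase of meiosis, read 7.85 and 8.67 in Scrambled ESC, 7.85 and 8.64 in KD1 and 8.17 in KD2 replicate 1, and 7.0 and 6.68, 6.69 and 6.52, and 7.35 in RA, with displaced arrays at 7.56 and 8.67. Its replicates differed by about as much as some groups did, and its fall was -1.42 (SE 0.30, adjusted p = 0.00437 on 10 arrays). Stag3, a cohesin subunit, went from 10.51 and 11.26 in Scrambled ESC to 9.55 and 9.87 in RA (log2 -1.17, SE 0.28, adjusted p = 0.00774 on 10 arrays). Stag3 in KD1 read 10.31 and 11.03 in ESC and 9.41 and 9.52 in RA, and in KD2 10.07 and 9.89, with displaced arrays at 9.91 and 10.63. Sycp1, the transverse filament protein, moved less and on a dim probe, from 6.49 and 6.0 to 5.74 and 5.64 in Scrambled cells (log2 -0.56, SE 0.16, adjusted p = 0.0177 on 10 arrays). Its KD1 arrays read 6.16 and 5.94 in ESC and 6.05 and 6.08 in RA, its KD2 arrays 6.59 and 6.16, and the displaced ones 6.12 and 6.30. Sycp2 stayed between 4.88 and 5.95 on the 12 arrays.

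Rec8, the kleisin that holds sister chromatids in meiosis and a gene known to respond to retinoic acid in germ cells, went the other way. It read 7.82 and 8.74 in Scrambled ESC, 8.14 and 7.84 in KD1 and 7.91 in KD2 replicate 1. The RA arrays gave 11.14 and 11.24 for Scrambled, 10.34 and 10.52 for KD1, and 10.69 for KD2 replicate 1, and the displaced arrays read 10.81 and 8.62. Displaced arrays aside, every RA array thus exceeded every ESC array by more than the replicates differed, and the rise in Scrambled cells was 7.53-fold (log2 2.91, SE 0.26, adjusted p = 2.87e-05 on 10 arrays). On 12 arrays neither Rec8, Sycp3 nor Smc1b was called in this comparison.

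Of the 15 members of the piRNA pathway, 7 fell and 1 rose on 10 arrays, where 20.8% of all genes fell and 21.8% rose. On 12 arrays 3 of the 15 fell and 0 rose, where 5.66% of all genes fell and 8.14% rose. Piwil2, the PIWI protein MILI, read 8.92 and 8.97 in Scrambled ESC, 9.19 and 9.08 in KD1 and 8.77 in KD2 replicate 1. The RA arrays gave 7.40 and 7.53, 7.85 and 7.95, and 7.49, with displaced arrays at 7.68 and 8.88. Displaced arrays aside, no RA array reached an ESC array, and it fell 2.8-fold in Scrambled cells (log2 -1.49, SE 0.12, adjusted p = 1.73e-05 on 10 arrays). Tex19.1, a suppressor of transposons that pluripotent cells also express, read 9.19 and 9.10 in Scrambled ESC, 8.80 and 8.43 in KD1 and 9.25 in KD2 replicate 1, and 7.75 and 7.82, 8.01 and 7.77, and 8.55 in RA (displaced 8.29 and 8.76). Its fall was called on 12 arrays (log2 -1.36, SE 0.29, adjusted p = 0.037) and on 10. KD2 replicate 1 held the highest Tex19.1 value of the RA arrays that matched their label. Mov10l1, the helicase that feeds piRNA precursors to PIWI proteins, read 8.34 and 8.57 in Scrambled ESC and 7.76 and 7.80 in RA (log2 -0.67, SE 0.14, adjusted p = 0.00367 on 10 arrays). Its KD1 arrays read 8.78 and 8.51 in ESC and 7.82 and 7.74 in RA, its KD2 arrays 7.98 and 7.66, and the displaced ones 7.66 and 8.11.

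Ddx4, the germ cell helicase Vasa, was the piRNA member that rose. It read 8.89 and 8.46 in Scrambled ESC, 9.01 and 8.73 in KD1 and 9.16 in KD2 replicate 1, and 9.21 and 9.47, 9.34 and 9.38, and 9.62 in RA, with displaced arrays at 9.94 and 8.86. Displaced arrays aside, the states stood apart by a small margin, and the rise in Scrambled cells was 0.66 (SE 0.17, adjusted p = 0.0132 on 10 arrays). Mael, a nuage protein, went from 10.20 and 10.70 to 9.56 and 9.94 in Scrambled cells (log2 -0.70, SE 0.18, adjusted p = 0.0116 on 10 arrays). In KD1 it read 10.27 and 10.38 in ESC but 10.62 and 10.68 in RA, and in KD2 9.70 and 9.90 (displaced 9.91 and 10.09). Mael therefore fell in Scrambled cells while the KD1 arrays were higher in RA than in ESC. Piwil4 (MIWI2) went from 6.79 and 6.95 to 5.97 and 6.34 in Scrambled cells, a dim probe that was called on 12 arrays (log2 -0.72, SE 0.17, adjusted p = 0.0417) and on 10. Its knockdown ESC arrays read 6.87 and 6.67 in KD1 and 6.58 in KD2, and its knockdown RA arrays 6.46, 6.37 and 6.29 (displaced 6.14 and 6.25). Piwil1 (MIWI), from 6.0 to 6.73 on the 12 arrays, fell by 0.35 (SE 0.11, adjusted p = 0.03 on 10 arrays).

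Among the other members the largest fall from ESC to RA was that of Rpl10l, a retrogene copy of the X-linked ribosomal protein gene Rpl10 at chr12:66283379-66284401. It read 11.12 and 11.26 in Scrambled ESC, 10.72 and 10.75 in KD1 and 9.77 in KD2 replicate 1, and 9.32 and 9.12, 9.10 and 8.89, and 8.81 in RA, with displaced arrays at 8.80 and 10.07. The fall in Scrambled cells was 3.94-fold on 12 arrays (log2 -1.98, SE 0.41, adjusted p = 0.0357) and on 10 (SE 0.13, adjusted p = 5.11e-06). The probe set of Rpl10 itself read 13.57 to 13.73 on the 12 arrays. How far the Rpl10l probes also read Rpl10 was not tested. Tex14, a protein of the bridges between germ cells, read 9.03 and 9.34 in Scrambled ESC, 7.98 and 8.28 in KD1 and 7.95 in KD2 replicate 1, and 7.58 and 7.78, 7.21 and 7.13, and 8.26 in RA, with displaced arrays at 8.27 and 8.31. Tex14 fell in Scrambled cells on 12 arrays (log2 -1.5, SE 0.18, adjusted p = 0.0101) and on 10, and for KD2 replicate 1 the RA value was the higher. Nanos3, an RNA-binding protein of primordial germ cells, went from 8.51 and 7.78 to 7.48 and 7.55 in Scrambled cells (log2 -0.63, SE 0.21, adjusted p = 0.0362 on 10 arrays). It read 8.18 and 7.98 in KD1 ESC and 7.29 and 7.23 in KD1 RA, 8.17 and 7.38 in KD2 replicate 1, and 7.5 and 8.11 in the displaced arrays. Tex101, a surface protein of germ cells with a dim probe, fell by 0.59 (SE 0.14, adjusted p = 0.00738 on 10 arrays) within a range of 6.36 to 7.38.

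Taf7l and Slc25a31 rose. Taf7l, a TFIID-related factor of male germ cells on the X chromosome, read 6.28 and 6.40 in Scrambled ESC, 5.96 and 6.44 in KD1 and 6.60 in KD2 replicate 1. The RA arrays gave 7.43 and 7.30 for Scrambled, 8.83 and 8.62 for KD1 and 7.89 for KD2 replicate 1, with displaced arrays at 7.53 and 6.39. Displaced arrays aside, all RA arrays stood above all ESC arrays, and within RA the knockdown arrays stood above Scrambled. Its rise in Scrambled cells was 2.03-fold (log2 1.02, SE 0.16, adjusted p = 0.000911 on 10 arrays). Slc25a31, the ADP/ATP carrier of germ cells also known as Ant4, read 7.87 and 8.36 in Scrambled ESC, 7.37 and 7.37 in KD1 and 6.86 in KD2 replicate 1, and 8.60 and 9.02, 9.12 and 9.15, and 7.96 in RA, with displaced arrays at 7.96 and 7.22. Its rise in Scrambled cells was 0.69 (SE 0.19, adjusted p = 0.0154 on 10 arrays).

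**Figure D3:**
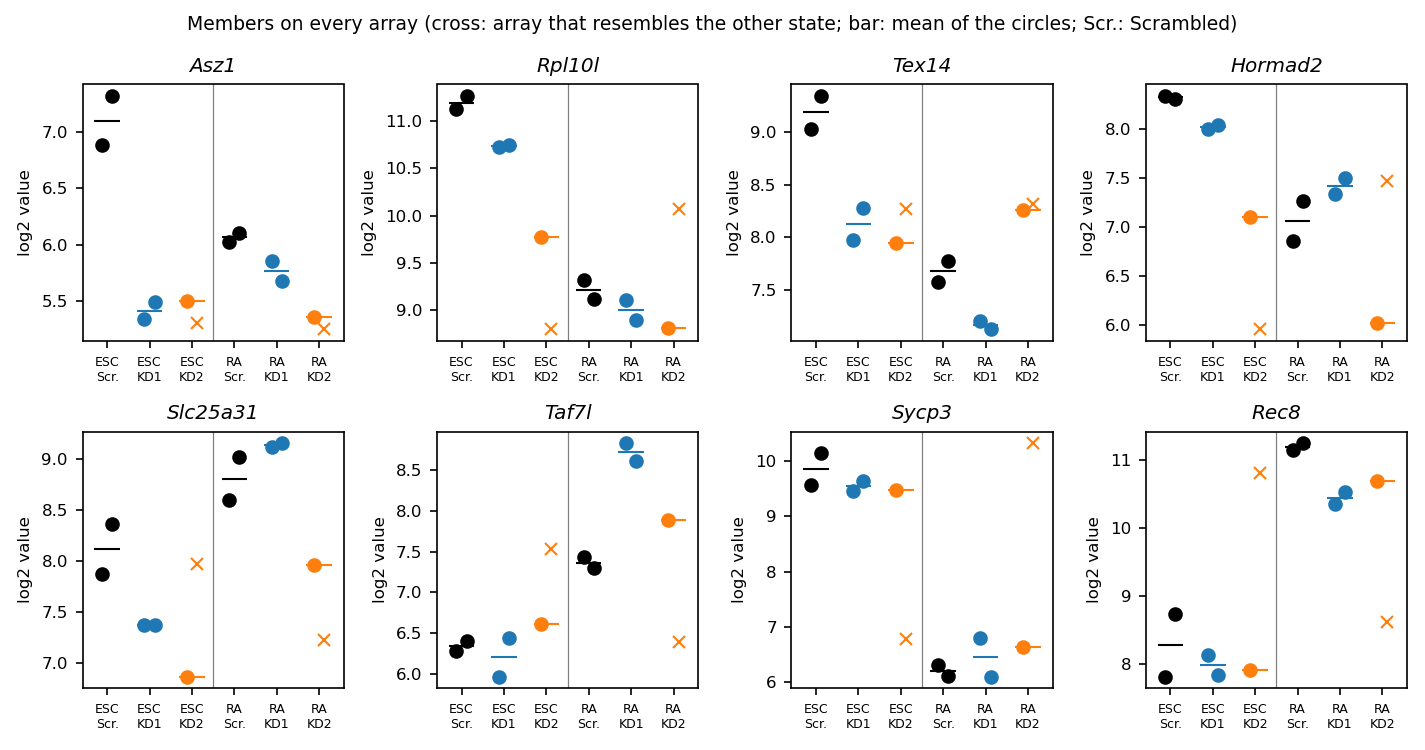
Log2 value (y axis) of 8 members on each of the 12 arrays by group (x axis), with circles for arrays that match their labelled state, crosses for the pair of displaced arrays, and a bar at the mean of the circles. Asz1 is highest in the Scrambled ESC arrays, while Sycp3 and Rec8 separate the states in every line.

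In ESC the knockdown lines were compared with Scrambled to ask whether these genes differ with the Set knockdown in growing stem cells, and the members called in either fit fell. Asz1 fell in both lines, with both lines at about the same level. On 12 arrays Asz1 was the 1 member called, and 0 rose, where 0.0953% of all genes fell and 0% rose; 7 members had an unadjusted p under 0.05 in limma. On 10 arrays 5 members fell and 0 rose, where 0.502% of all genes fell and 0.537% rose. They were Asz1, Tex14, Rpl10l, Slc25a31 and Hormad2. The median difference over the members was -0.32 on 12 arrays and -0.21 on 10, against 0.01 and 0.02 over all genes. With the replicate number as a block within each state, 1 member fell on 12 arrays, where 0.0351% of all genes fell. On 10 arrays the block gave 12 members, of which 11 fell and 1 rose, where 2.69% of all genes fell and 3.45% rose, with Smc1b (-0.81, adjusted p = 0.00507) and Dazl (-0.84, adjusted p = 0.0091) among those added. Leaving out 1 array kept the 12-array count at 1. The 10-array count became 8 without ESC Scrambled replicate 1, 3 without ESC Scrambled replicate 2 or either ESC KD1 array, and 2 without either RA KD1 array.

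Asz1, an ankyrin repeat protein of germ cell mitochondria that the piRNA pathway needs, lies at chr6:18050964-18109061. It read 6.89 and 7.32 in Scrambled ESC, 5.33 and 5.49 in KD1, 5.49 for KD2 replicate 1, and 5.30 on the displaced array labelled ESC KD2. The RA arrays gave 6.03 and 6.10 for Scrambled, 5.86 and 5.67 for KD1, 5.36 for KD2 replicate 1 and 5.24 for the displaced array. Every knockdown array lay below every Scrambled array of its labelled state, and the knockdown ESC arrays lay below the Scrambled RA arrays too. The difference in ESC was 3.25-fold on 12 arrays (log2 -1.70, SE 0.13, 4 against 2 arrays, adjusted p = 0.00221) and 3.14-fold on 10 (log2 -1.65, SE 0.14, adjusted p = 0.00164). By line it was -1.69 in KD1 (SE 0.15, adjusted p = 0.0076 on 12 arrays) and -1.71 in KD2 (SE 0.15, adjusted p = 0.00706). With the block on 12 arrays the line values were no longer called (adjusted p = 0.07 and 0.0619), while that of both lines together was (adjusted p = 0.0314). All Asz1 group means lay below 7.22, so it is a dim probe and was not tested where dim genes were left out.

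The other 4 were called on 10 arrays and not on 12. Tex14 was lower in every knockdown ESC array than in either Scrambled array, by 2.21-fold on 10 arrays (log2 -1.15, SE 0.15, adjusted p = 0.0132) with an adjusted p of 0.0802 on 12. Rpl10l was 1.92-fold lower (log2 -0.94, SE 0.12, adjusted p = 0.0132), Slc25a31 2.00-fold lower (log2 -1.0, SE 0.18, adjusted p = 0.0393) and Hormad2 1.70-fold lower (log2 -0.76, SE 0.14, adjusted p = 0.0428). Rpl10l and Hormad2 differed more in KD2 than in KD1.

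By line, KD1 in ESC had 1 member called on 12 arrays (Asz1) and 2 on 10 arrays (Asz1, and Tex14 at -1.05, SE 0.16, adjusted p = 0.0128), where 0.0451% and 1.08% of all genes fell and 0.0201% and 0.843% rose. KD2 had 1 on 12 arrays and 5 on 10, where 0.0752% and 0.271% of all genes fell and 0.0100% and 0.717% rose. In KD2 on 10 arrays, from 1 array, Rpl10l was at -1.42 (SE 0.16, adjusted p = 0.00779), Slc25a31 at -1.26 (SE 0.23, adjusted p = 0.0468), Tex14 at -1.24 (SE 0.19, adjusted p = 0.0229) and Hormad2 at -1.23 (SE 0.18, adjusted p = 0.02). The same genes in KD1 stood at -0.46 for Rpl10l, -0.75 for Slc25a31 and -0.30 for Hormad2, and were not called. These lines share the Scrambled arrays. The direct comparison of KD1 with KD2 called 2 members on 10 arrays, both higher in KD1, where 0.527% of all genes were higher in KD1 and 1.67% lower: Rpl10l (0.96, SE 0.16, adjusted p = 0.0189) and Hormad2 (0.93, SE 0.18, adjusted p = 0.0365). On 12 arrays limma called 0 members, with 8 at an unadjusted p under 0.05, where 0.0752% of all genes were higher and 0.0552% lower. The 10-array count was 0 without either ESC KD1 array, 1 without either RA KD1 array, and 4 with the block, all higher in KD1, where 1.96% of all genes were. With the block each line gave 0 members on 12 arrays, where 0.0100% of all genes fell in each and 0.00502% rose in KD1 and 0% in KD2. On 10 arrays 9 members fell in KD1, where 6.53% of all genes did, and in KD2 8 fell and 1 rose, where 0.978% and 3.24% did. The KD1 count on 12 arrays was 0 without ESC Scrambled replicate 2 or either ESC KD1 array, and on 10 arrays 6 without ESC Scrambled replicate 1 and 1 without ESC KD1 replicate 1. The KD2 count on 12 arrays was 0 without ESC KD2 replicate 2 and 2 without either RA KD2 array, and on 10 arrays 10 without ESC Scrambled replicate 1 and 2 without either RA KD1 array.

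**Figure D4:**
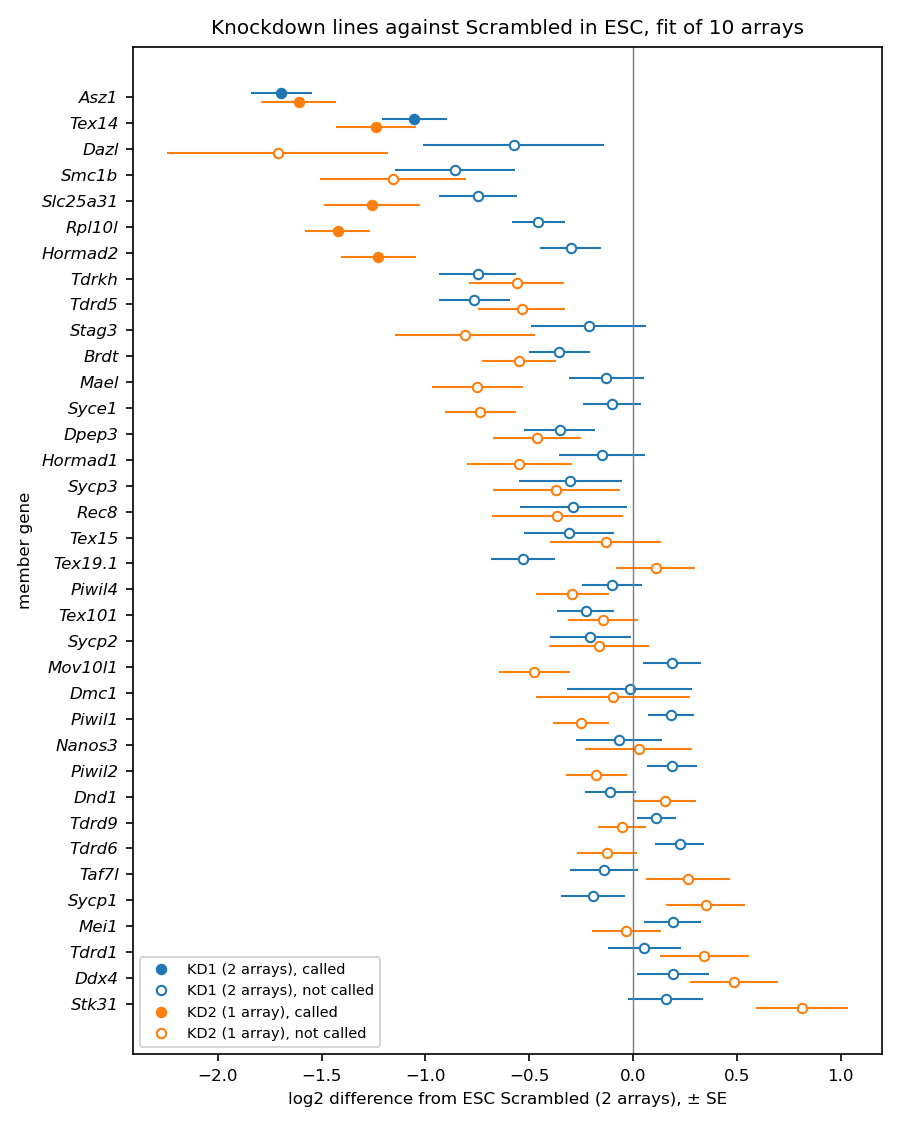
Log2 difference from Scrambled in ESC (x axis, bars are 1 SE) of each member (y axis) in KD1 (blue, 2 arrays) and KD2 (orange, 1 array) in the 10-array fit, filled where called. Asz1 (-1.69 in KD1, -1.61 in KD2) and Tex14 (-1.05, -1.24) are filled in both lines, and Rpl10l, Slc25a31 and Hormad2 in KD2.

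In RA the same comparison called Taf7l, which was higher in the knockdown. On 12 arrays 0 members were called by limma, with 3 at an unadjusted p under 0.05, where 0.532% of all genes rose and 0.607% fell. On 10 arrays 1 of the 36 (2.78%) rose and 0 fell, where 2.67% of all genes rose and 3.38% fell. The share that rose was thus about that of all genes. Taf7l was 1.92-fold higher (log2 0.94, SE 0.15, adjusted p = 0.00799). Its KD1 arrays read 8.83 and 8.62 and KD2 replicate 1 read 7.89, against 7.43 and 7.30 in Scrambled. By line Taf7l was called in KD1 only, and KD2 is 1 array here. Asz1 stood at -0.50 (SE 0.14, adjusted p = 0.071). The block on 12 arrays gave 0 members, where 0.517% of all genes rose and 0.602% fell. With the block on 10 arrays 4 rose and 2 fell, where 7.16% and 9.46% did, and Asz1 was among those that fell (-0.52, adjusted p = 0.0131). The count on 10 arrays was 0 without either RA Scrambled array and 5 without either ESC Scrambled array.

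KD1 in RA had 3 members called on 10 arrays, all higher, where 5.39% of all genes rose and 6.69% fell. Taf7l rose 2.57-fold (log2 1.36, SE 0.16, adjusted p = 0.000986), Mael 1.87-fold (log2 0.90, SE 0.18, adjusted p = 0.0122) and Piwil2 1.35-fold (log2 0.44, SE 0.12, adjusted p = 0.047). For all 3 genes both KD1 arrays exceeded both Scrambled arrays. On 12 arrays limma called 0, with 3 at an unadjusted p under 0.05, where 1.58% of all genes rose and 0.742% fell, and the block on 12 arrays called Mael (adjusted p = 0.0319), where 1.80% rose and 0.873% fell. With the block on 10 arrays 6 rose and 2 fell, where 10.1% and 13.9% of all genes did, the latter being Rec8 (-0.75) and Tex14 (-0.51). The 10-array count was 5 without either ESC Scrambled array and 1 without RA Scrambled replicate 1 or either RA KD1 array, and 2 without either ESC KD1 array or RA Scrambled replicate 2. The 12-array count became 1 without either RA KD2 array.

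KD2 in RA rested on 1 array in the 10-array fit, which called Hormad2 lower (log2 -1.04, SE 0.18, adjusted p = 0.0385), where 0.637% of all genes fell and 0.326% rose. The array labelled RA KD2 replicate 2 read 7.47, above both Scrambled arrays, and the value without replicate 1 was 0.41. On 12 arrays limma called 0, with 7 at an unadjusted p under 0.05, where 0.0251% of all genes rose and 0.246% fell. The 12-array count was 3 without RA KD2 replicate 1. On 10 arrays it was 2 without either ESC Scrambled array, 0 without any KD1 array or RA Scrambled replicate 2, and 6 with the block (2 rose, 4 fell, where 1.99% and 3.06% of all genes did).

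From ESC to RA in KD1 cells Sycp3 and Rpl10l fell and Rec8, Taf7l and Slc25a31 rose. On 10 arrays 7 rose and 14 fell, where 20.3% of all genes rose and 20.8% fell. On 12 arrays 2 rose and 3 fell, where 7.02% rose and 4.26% fell. The median difference was -0.31, against -0.08 over all genes. Those called on 12 arrays were Taf7l (5.74-fold up, log2 2.52, SE 0.45, adjusted p = 0.0161), Slc25a31 (3.4-fold up, log2 1.77, SE 0.37, adjusted p = 0.0264), Rpl10l (log2 -1.74, SE 0.41, adjusted p = 0.0343), Tex14 (log2 -0.96, SE 0.18, adjusted p = 0.0183) and Mov10l1 (log2 -0.86, SE 0.19, adjusted p = 0.0318). On 10 arrays Sycp3 fell 8.54-fold (log2 -3.09, SE 0.25) and Rec8 rose 5.44-fold (log2 2.44, SE 0.26). The Tudor proteins Tdrkh (0.75) and Tdrd5 (0.55) and the dim Sycp2 (0.61) were also called higher on 10 arrays. Tdrkh read 6.74 and 6.30 in KD1 ESC and 7.29 and 7.25 in KD1 RA, against 7.11 and 7.42, and 7.57 and 7.96, in Scrambled cells; its KD2 arrays read 6.70 and 7.59, and the displaced ones 7.96 and 6.73. Tdrd5 read 7.53 and 7.63 in KD1 ESC and 8.11 and 8.14 in KD1 RA, against 8.07 and 8.61, and 7.91 and 8.05, in Scrambled cells; its KD2 arrays read 7.81 and 7.59, and the displaced ones 7.68 and 8.05. The 12-array count of 5 was 3 without either ESC Scrambled array or RA Scrambled replicate 2, 2 without RA Scrambled replicate 1, 0 without any 1 KD1 array, and 12 without any 1 KD2 array. On 10 arrays it was 13 to 23.

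Whether the change from ESC to RA differed between KD1 and Scrambled was tested as an interaction, and Asz1 and Taf7l differed. Asz1 fell from ESC to RA in Scrambled cells (log2 -1.04, SE 0.15, adjusted p = 0.0177 on 12 arrays). In KD1 it stood at 0.35 (SE 0.15, adjusted p = 0.0863 on 10 arrays). The KD1 ESC arrays read 5.33 and 5.49, near the lowest value of this dim probe on the 12 arrays (5.24). How far that keeps a fall in KD1 from showing was not tested. The interaction uses the same ESC arrays as the knockdown difference of KD1 in ESC and is not independent of it. The interaction was 1.39 (SE 0.21, adjusted p = 0.0466 on 12 arrays and 0.00708 on 10), and on 12 arrays Asz1 was the 1 member called, where 0.206% of all genes were positive and 0.0552% negative. That call did not hold with the block (adjusted p = 0.0836), nor without ESC Scrambled replicate 2, any 1 RA Scrambled array or any 1 KD1 array, where 0 members were called. Of the 36 members 24 were positive, with a median of 0.26 against -0.03 over all genes, and Slc25a31 (1.08, adjusted p = 0.0565), Mael (1.03, adjusted p = 0.0565) and Dazl (1.07, adjusted p = 0.426 on 10 arrays) were not called. Taf7l had an interaction of 1.5 (SE 0.23, adjusted p = 0.00825 on 10 arrays), where 2.54% of all genes were positive and 2.28% negative, and 2 members were called. The 10-array count was 2 to 6 with 1 array left out, and 11 with the block, all positive, where 7.18% of all genes were.

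**Figure D5:**
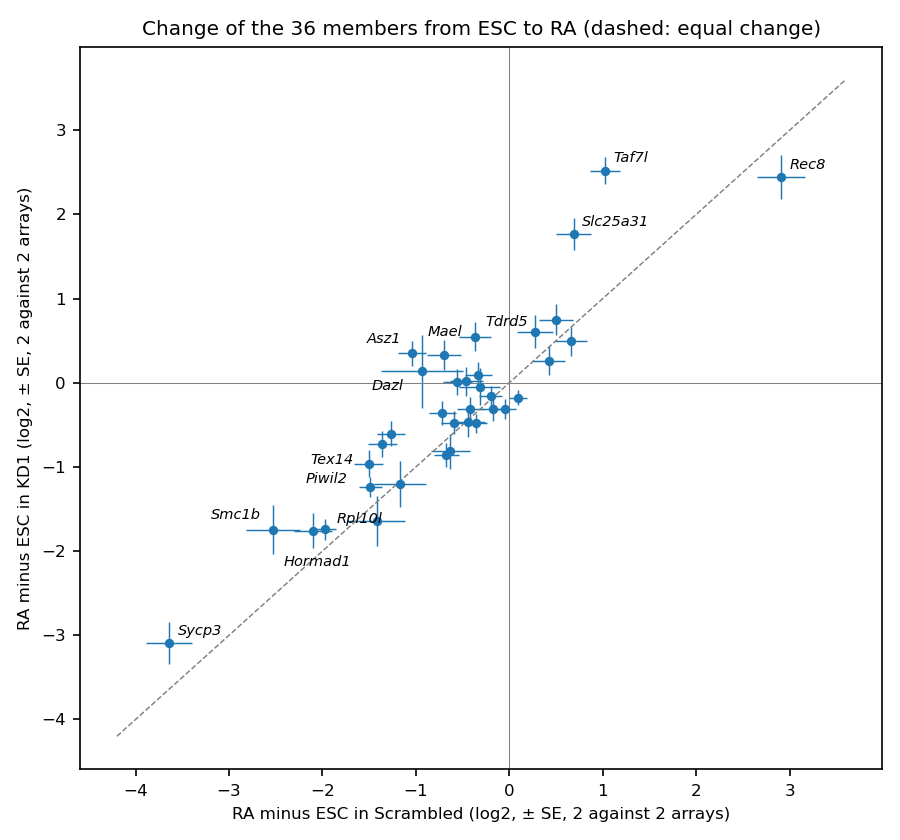
Log2 change from ESC to RA in Scrambled (x axis) against that in KD1 (y axis) for the 36 members, bars being 1 SE in the 10-array fit and the dashed line equal change. Of the 36 members 24 lie above the line, and 5 lie more than 1 unit above it: Taf7l (1.02 in Scrambled, 2.52 in KD1), Asz1 (-1.04, 0.35), Slc25a31 (0.69, 1.77), Mael (-0.70, 0.33) and Dazl (-0.93, 0.14).

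The remaining 11 members were Tdrd1, Tdrd6, Tdrd9, Stk31, Tex15, Syce1, Mei1, Dazl, Dnd1, Brdt and Dpep3. Their values lay between 5.41 and 10.22, and the range of a single gene over the 12 arrays was 0.304 to 2.33. The widest was that of Dazl, an RNA-binding protein that promotes translation in germ cells, which read 8.99 and 10.22 in the Scrambled ESC arrays, 8.44 and 9.61 in KD1 and 7.89 in KD2 replicate 1. Dazl replicates of 1 group thus differed by over 1 unit, with replicate 2 the higher in both Scrambled and KD1, while KD2 without its displaced array is replicate 1 alone. The KD2 difference was -1.71 on 10 arrays (SE 0.53, adjusted p = 0.226) and was not called. With the block it was -1.11 (SE 0.19, adjusted p = 0.0127 on 10 arrays, 0.159 on 12). Among these 11 genes Syce1, of the central element of the synaptonemal complex, was called once, in Scrambled cells from ESC to RA on 10 arrays (log2 -0.42, SE 0.14, adjusted p = 0.038).

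Members fell and rose both with and without each motif. Of the 14 members whose promoter held the E-box, 7 fell and 3 rose from ESC to RA in Scrambled cells on 10 arrays, and of the 18 without it 11 fell and 1 rose. With the E2F letters 8 of 11 fell and 2 rose, and without them 10 of 21 fell and 2 rose. Over all genes 20.8% fell and 21.8% rose in that comparison on 10 arrays. Motif counts were not made on 12 arrays, where 6 of the 36 members fell and 0 rose.

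Among the writers, erasers and readers of DNA methylation, 12 of 15 measured genes changed from ESC to RA in Scrambled cells on 10 arrays, and 3 differed with the knockdown in RA. On 10 arrays 4 rose and 8 fell, where 21.8% of all genes rose and 20.8% fell, and on 12 arrays 2 rose and 5 fell, where 8.14% and 5.66% did. Dnmt3l, the cofactor of the de novo methyltransferases, read 12.43 and 12.49 in Scrambled ESC and 8.64 and 9.28 in Scrambled RA (log2 -3.50, SE 0.18, adjusted p = 1.69e-06). Its RA values were 10.19 and 10.31 for KD1 and 10.40 for KD2 replicate 1, above both Scrambled arrays. Dnmt3b, the main de novo enzyme at such promoters, fell by 2.31 (SE 0.29, adjusted p = 0.000206), and Tet3, a demethylating oxygenase, rose by 2.47 (SE 0.18, adjusted p = 9.36e-06). Against Scrambled in RA on 10 arrays the knockdown had higher Dnmt3l (1.36, SE 0.17, adjusted p = 0.00251) and Dnmt3b (1.12, SE 0.27, adjusted p = 0.0454) and lower Dnmt3a (-0.62, SE 0.15, adjusted p = 0.0455), and 0 of 15 were called on 12 arrays. By line in RA, KD1 stood at 1.20 for Dnmt3b and -0.91 for Dnmt3a, and both were called. KD2 there is 1 array. It read 9.38 for Dnmt3b, against 8.26 and 8.43 in Scrambled and 9.74 and 9.34 in KD1. For Dnmt3a it read 10.17, against 10.47 and 10.55 in Scrambled and 9.66 and 9.55 in KD1. In ESC 0 of 15 were called by limma for both lines together on either fit. On 10 arrays KD1 alone had lower Dnmt3a (-0.82, SE 0.16, adjusted p = 0.0403), where 1.08% of all genes fell, and KD1 against KD2 called Dnmt3a (-1.04), Tet2 (0.89) and Mbd2 (-0.62).

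The 21 genes of PRC1.6 and of H3K9 repression included 0 called by limma for both lines together in ESC on either fit. On 10 arrays Rnf2, a ubiquitin ligase of the complex, was higher in KD1 than in Scrambled (0.44, SE 0.07, adjusted p = 0.013) and than in KD2 (0.55, SE 0.08, adjusted p = 0.013). From ESC to RA in Scrambled cells 4 rose and 10 fell on 10 arrays, where 21.8% of all genes rose and 20.8% fell. On 12 arrays 1 rose and 2 fell, where 8.14% and 5.66% did. Yaf2 stood at 2.16, L3mbtl2 at -1.44, Mga at -1.01 and E2f6 at 0.989, and L3mbtl2 and E2f6 were not called on 12 arrays. Of 20 regulators of germ cell fate, 2 fell in the knockdown in ESC on 10 arrays and 0 on 12. All genes fell at 0.502% and 0.0953%. The 2 were Dppa3, a maternal factor that protects methylation states (-1.32, SE 0.17, adjusted p = 0.0141), and Sohlh2, a germ cell transcription factor (-1.23, SE 0.19, adjusted p = 0.0281), and each rested on 1 line. Dppa3 was called in KD1 (-2.07, SE 0.19, adjusted p = 0.00193) and not in KD2, and Sohlh2 in KD2 from 1 array (-2.41, SE 0.25, adjusted p = 0.00745) and not in KD1. The lines differed in both genes (KD1 against KD2 -1.50 for Dppa3, adjusted p = 0.0144, and 2.37 for Sohlh2, adjusted p = 0.00535, on 10 arrays), and the Sohlh2 arrays of the knockdown overlapped those of Scrambled. Stra8, the retinoic acid target that opens meiosis, rose 9.73-fold from ESC to RA in Scrambled cells (log2 3.28, SE 0.37, adjusted p = 0.00011 on 10 arrays), and was not called on 12.

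Of the germline genes outside the 36, most that were called from ESC to RA fell, and some X-linked ones fell in the knockdown. Of 17 other genes of piRNAs and nuage, and of 20 other meiosis genes, 0 were called by limma in the comparison of both knockdown lines together with Scrambled, in either state on either fit. KD1 alone in RA had 2 higher and 1 lower in each list on 10 arrays, where 5.39% and 6.69% of all genes were. Of these Tex12, a central element protein of the synaptonemal complex, was also called on 12 arrays (1.14, SE 0.18, adjusted p = 0.0149). From ESC to RA in Scrambled cells on 10 arrays 9 of the 17 fell and 2 rose, with Tdrd12 at -2.91 and Gtsf1 at -2.24, and 12 of the 20 fell and 2 rose, with Mei4 at -1.92 and Rec114 at -1.54. Over all genes 20.8% fell and 21.8% rose. On 12 arrays, where 5.66% of all genes fell and 8.14% rose, 3 of the 17 and 6 of the 20 fell and 0 rose in either list. Of 23 X-linked germline genes 6 fell and 0 rose in the knockdown in ESC on 10 arrays, where 0.502% of all genes fell and 0.537% rose, and 4 fell on 12, where 0.0953% did. Ct55, a cancer and testis gene, read 8.09 and 8.22 in Scrambled ESC, 6.53 and 6.5 in KD1 and 6.39 in KD2 replicate 1 (log2 -1.80, SE 0.12, adjusted p = 0.00113 on 12 arrays; -1.70, adjusted p = 0.000177 on 10). Nxf3, a testis relative of an RNA export factor, read 8.27 and 8.61 in Scrambled ESC, 6.33 and 6.22 in KD1 and 6.97 in KD2 replicate 1 (log2 -1.80, SE 0.23, adjusted p = 0.0427 on 12 arrays; -1.82, adjusted p = 0.0132 on 10). Both genes stood lower in every knockdown ESC array than in either Scrambled one, as Asz1 did.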

How the data were processed

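The 12 arrays were Affymetrix gene arrays hybridised with biotinylated cRNA from 300 ng of total RNA, per the labels' protocols. The values the authors deposited are log2 intensities from RMA, as the submitters' processing notes say; its version and settings are not given in the sources used here. RMA corrects background, normalizes between arrays and gives 1 value per probe set. Of 35556 probe sets, 21789 carried 1 symbol in the platform annotation, and the one with the highest mean stood for each of 19938 genes. Array medians were 7.17 to 7.24, and the number of arrays limits the precision.

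Groups came from the labels, and 10 comparisons were fitted with limma 3.58.1 in R 4.3.3 (eBayes with an intensity trend, 6 residual and 2.76 prior degrees of freedom on 12 arrays, 4 and 4.93 on 10), with Benjamini-Hochberg adjustment over all genes. KD is the mean of KD1 and KD2. Replicate numbers entered a fit only where a block is named, and the other fits on 12 and 10 arrays held no replicate term. The block paired arrays of the same replicate number within a state and not between states. Within a state the deviations of all 6 pairs of groups correlated at 0.141 to 0.633, and between states 9 pairs lay between -0.864 and 0.105. The -0.864 was ESC KD2 with RA KD2, the groups that hold the displaced arrays, and the next lowest was -0.102. The members, gene lists and tests were chosen with earlier results of these data known. Members called in any comparison on 12 or 10 arrays were named, up to 25 by largest difference, and of each other list up to 4 called genes. Promoters came from RefSeq; figures were drawn with matplotlib 3.10.9.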

Additional observations from a re-analysis of the deposited data

Results flagged for a closer look

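The change of Asz1 from ESC to RA differed between KD1 and Scrambled by 1.39 log2 units (SE 0.21, adjusted p = 0.0466 in limma's interaction on 12 arrays, 2 arrays in each of the 4 groups). The adjusted p was 0.00708 on 10 arrays and 0.0836 with the replicate block on 12. Both Scrambled arrays were lower in RA than in ESC, and both KD1 arrays were higher. The KD1 arrays in ESC read 5.33 and 5.49, near the lowest value of this dim probe (5.24). The cause was not tested.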

How the results depend on the processing

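With 2 arrays a group, and KD2 down to 1 array a state once the displaced arrays are left out, the counts of called members moved with several settings. Quantile normalization and the mean over a gene's probe sets moved no count by over 1.5 times. The Asz1 probe is dim, and signal near background limits its precision. Leaving out the 2 displaced arrays gave 5 members for the knockdown in ESC, 2 for KD1 and 5 for KD2 in ESC, 2 for KD1 against KD2, 1, 3 and 1 for the knockdown, KD1 and KD2 in RA, 23 and 21 for RA against ESC in Scrambled and KD1, and 2 for the interaction. A replicate block within each state on 12 arrays gave 0 for KD1 and for KD2 in ESC, 1 for KD1 in RA, 12 and 9 for RA against ESC in Scrambled and KD1, and 0 for the interaction. The block on 10 arrays gave 12, 9, 9, 4, 6, 8, 6, 29, 27 and 11 in the order of the first list. Keeping the 12834 brighter genes gave 0 for the 3 ESC knockdown comparisons and the interaction, which rest on Asz1, and 11 for RA against ESC in Scrambled. Without the intensity trend the interaction gave 0.

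With 1 array left out on 12 arrays, the counts ran from 1 to 1 for the knockdown in ESC, 0 to 1 for KD1, 0 to 2 for KD2, 0 to 0 for KD1 against KD2, 0 to 0 for the knockdown in RA, 0 to 1 for KD1 and 0 to 3 for KD2 in RA, 0 to 17 and 0 to 12 for RA against ESC in Scrambled and KD1, and 0 to 1 for the interaction. On 10 arrays they ran from 2 to 8, 1 to 6, 2 to 10, 0 to 2, 0 to 5, 1 to 5, 0 to 2, 18 to 25, 13 to 23 and 2 to 6 in the same order; for RA against ESC, Scrambled gave 24 when ESC Scrambled replicate 1 was left out and 19 when RA Scrambled replicate 2 was, and KD1 gave 22 without either ESC Scrambled array, 15 and 19 without ESC KD1 replicates 1 and 2, and 16 without RA KD1 replicate 2. Among single members 1 value changed sign: Hormad2 in KD2 in RA was 0.41 without RA KD2 replicate 1 and -1.04 without replicate 2. Without replicate 1 that group is the displaced array alone, which resembled ESC. The cause of these moves was not tested.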
